A study of Homo sapiens with 12 samples.

Results

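The genes described here are the 2 MYC family genes MYC and MYCN and 47 factors of ribosome biogenesis. They were taken by symbol from the 56609 gene symbols of the deposited tables, and all 49 were found. The 47 factors comprise 5 genes of RNA polymerase I transcription, 7 of the small nucleolar ribonucleoproteins (snoRNPs), 3 other nucleolar proteins, 16 factors of the small ribosomal subunit and 16 of the large subunit. All 49 were among the 14335 genes tested, which are those with at least 1 CPM (reads per 1000000 of the deposited files' scaled library size) in at least 3 of the 12 libraries.

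Total RNA was sequenced from the human lines A4573 and TC-71, both of Ewing sarcoma. In this cancer of bone and soft tissue EWSR1 is fused to an ETS transcription factor, most often FLI1, and the compound YK-4-279 was developed to keep the fusion protein from binding an RNA helicase. Each of 4 groups has 3 libraries: A4573 parental and TC-71 parental, both labelled with the solvent DMSO, and the derivatives A4573-R and TC-71-R, labelled with YK-4-279. The labelled dose is 650 uM in A4573-R libraries and 400 uM in those of TC-71-R; whether that unit was meant is in doubt. All cells were grown in RPMI medium with serum and HEPES.

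Each derivative differs from its parent both in being the R line and in being exposed to the compound, and the 2 cannot be told apart. The labels do not say whether an R line is a single clone, nor that the libraries of a group came from separate cultures; the p-values then measure only the spread between these libraries. In bulk RNA, fewer cells of a kind and less RNA per cell cannot be told apart either. Of 12 Ewing sarcoma markers, all but CD99 (at most 0.0123 CPM on average in any group, with its symbol on 2 entries of the table) and, in the TC-71 groups, CCK had a mean of at least 1 CPM in every group.

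Ribosome biogenesis starts in the nucleolus, where RNA polymerase I transcribes the precursor of the large ribosomal RNAs. The small subunit processome and a series of large subunit assembly factors then fold, cut and package the precursor, while snoRNPs methylate it or turn its uridines into pseudouridines. MYC proteins are transcription factors that pair with MAX, bind E-box motifs and are known to drive many of these genes as well as cell growth.

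Depth was 44.0 to 62.1 M reads (M, 1000000) on named genes per library, and 1 CPM corresponds to 67.5 to 97.0 reads. Within A4573-R, the library labelled replicate 2 was the lowest of the 3 for 40 of the 49 genes (81.6%, against 43.3% of all genes tested), and replicate 3 was the highest for 43 (87.8%, against 36.3%). Within A4573 parental, replicate 1 was the lowest for 36 of the 49 (73.5%, against 51.7%). The median SD of the 49 genes on the log2(CPM + 1) scale was correspondingly wider in A4573-R (0.092) than in A4573 parental (0.030), TC-71 parental (0.022) or TC-71-R (0.033). Proliferation markers differed between groups: their summed CPM ran from 2673 to 2712 in parental A4573 and from 2822 to 2955 in A4573-R, and from 590.2 to 601.5 in parental TC-71 and from 1445 to 1571 in TC-71-R. Of 14 such markers, 14 rose in TC-71-R (median log2 fold change 1.41), and 6 rose and 4 fell in A4573-R (median -0.012). Of all genes tested, 38.8% rose and 39.6% fell in TC-71-R, and 38.3% rose and 34.1% fell in A4573-R. The A4573-R counts of these markers are near those shares. Epithelial markers summed to 21.4 to 22.4 CPM in TC-71 parental and 4.66 to 5.42 in TC-71-R, mostly KRT18. Fibroblast markers summed to 717.5 to 740.2 CPM in A4573 parental and 536.9 to 544.5 in A4573-R, where 4 of 7 fell and PDGFRA and DCN rose. They summed to 128 to 129.7 CPM in TC-71 parental and 142 to 144 in TC-71-R, where 5 of 7 rose (median log2 fold change 0.53; DCN went from 3.96 to 30.4 CPM and LUM from 3.99 to 15.1) and COL3A1 fell. With 7 genes the fibroblast counts cannot be set apart from the shares of all genes tested. Exons of 30 of the 49 genes overlap another gene, 22 of them a gene on the other strand, and the sources used here do not say whether counting used the strand. The part of these differences in the results below was not tested.

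Most of the set was lower in A4573-R. Of the 49 genes, 39 fell and 2 rose (MYCN and BYSL) against A4573 parental, and 8 did not pass an adjusted p of 0.05 (limma on log2(CPM + 1), Benjamini-Hochberg over all genes tested). Among all genes tested, 34.1% fell and 38.3% rose. The median log2 fold change of the 49 was -0.35, against 0.02 for all genes tested. The same 39 genes had all 3 A4573-R libraries below all 3 parental ones, as did 35% of all genes, and the same 2 that rose had them all above (39.7% of all genes). No member's mean CPM fell to 0.5 times the parental mean or less.

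In TC-71-R the set split. Of the 49, 19 rose, 22 fell and 8 did not pass (limma), with a median of -0.067 against -0.0033 for all genes tested; 38.8% of all genes rose and 39.6% fell. These member shares are near those of all genes tested. NPM1 and MYCN at least doubled in mean CPM there.

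**Figure D1:**
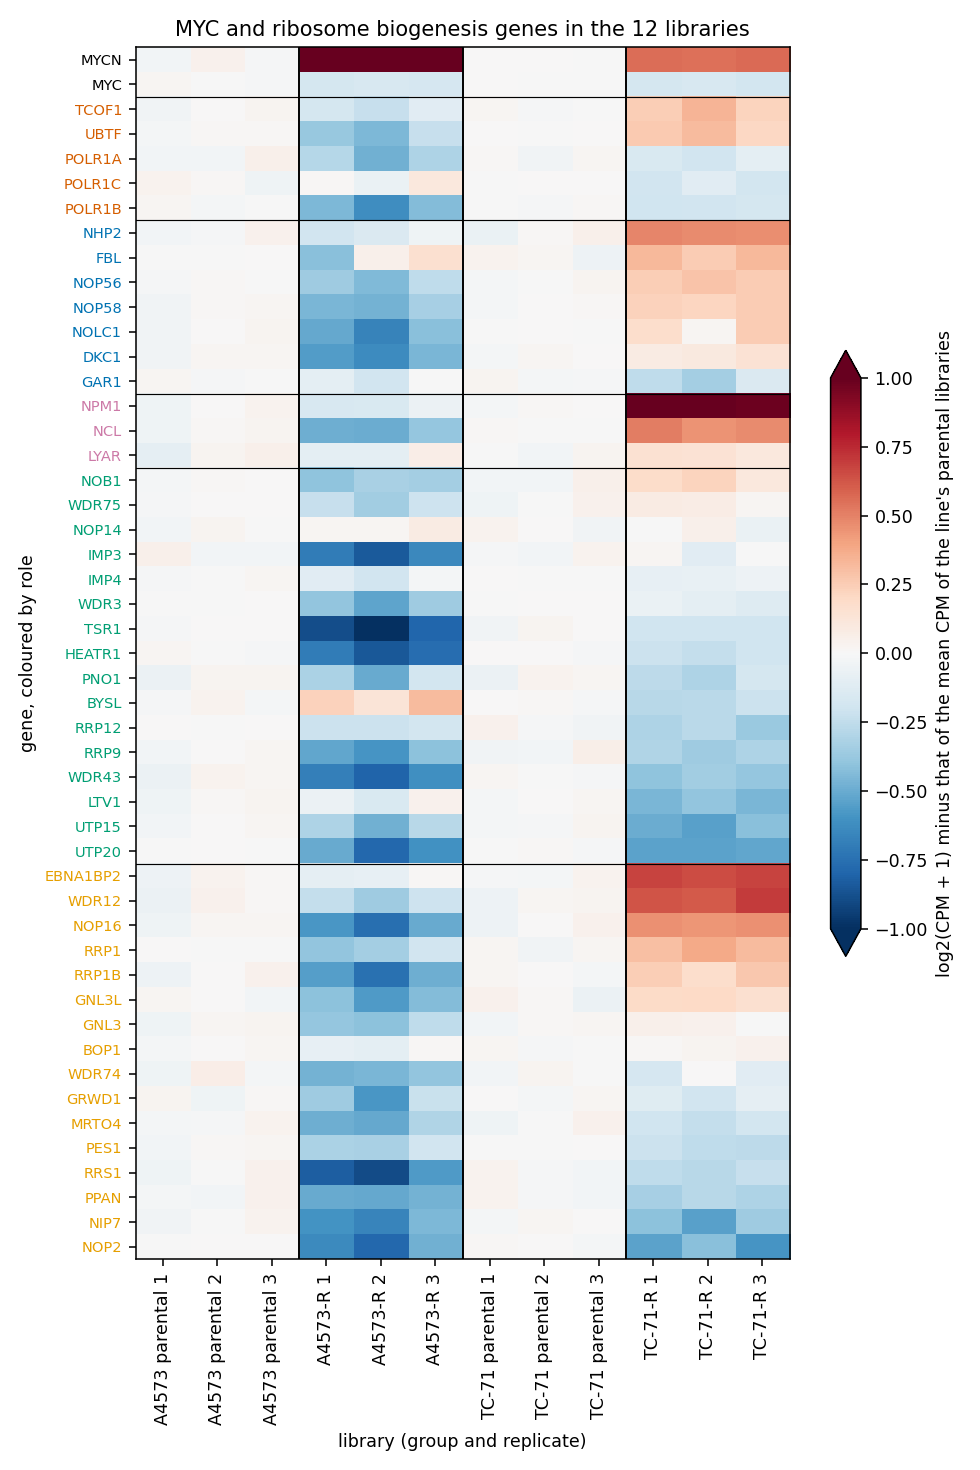
Heat map of the 49 genes (rows, grouped and coloured by role, ordered within a role by their change in TC-71-R) in the 12 libraries (columns). Colour is log2(CPM + 1) minus that of the mean of the line's parental libraries, cut off at 1 in either direction: A4573-R is blue in 39 rows that passed the test, while TC-71-R holds 19 rows that rose and 22 that fell.

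The difference between the lines was tested as the TC-71-R change minus the A4573-R change. It was above 0 for 33 of the 49 genes, below 0 for 5 and did not pass for 11 (limma); among all genes tested 37.9% were above 0 and 40.2% below. The median difference was 0.32 for the 49 and -0.013 for all genes. Taken jointly, 18 genes fell in both lines (36.7%, against 14.8% of all genes tested) and 15 fell in A4573-R and rose in TC-71-R (30.6%, against 11.9%). Both shares also carry the fall of most members in A4573-R. Of the 39 members that fell there, 18 fell and 15 rose in TC-71-R. Of the 4892 genes tested that fell there, 2127 fell and 1713 rose in TC-71-R, a similar split. MYCN alone rose in both (16.4% of all genes), and BYSL alone rose in A4573-R and fell in TC-71-R (14.3%). A further 6 genes (WDR74, WDR75, GNL3, IMP3, IMP4 and GRWD1) fell in A4573-R and did not pass in TC-71-R, though WDR74, WDR75, IMP4 and GRWD1 passed there under at least 1 alternative. FBL, LYAR and EBNA1BP2 rose and GAR1, POLR1C and LTV1 fell in TC-71-R without passing in A4573-R, and NOP14 and BOP1 passed in neither line. NOP14 passed as a fall in TC-71-R with CPM on named genes (-0.078, adjusted p = 0.049, limma). Across the 49 genes Pearson's r between the 2 lines' changes was 0.33, and across the 14335 genes it was 0.035; genes are not independent replicates, and r is given as a description.

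**Figure D2:**
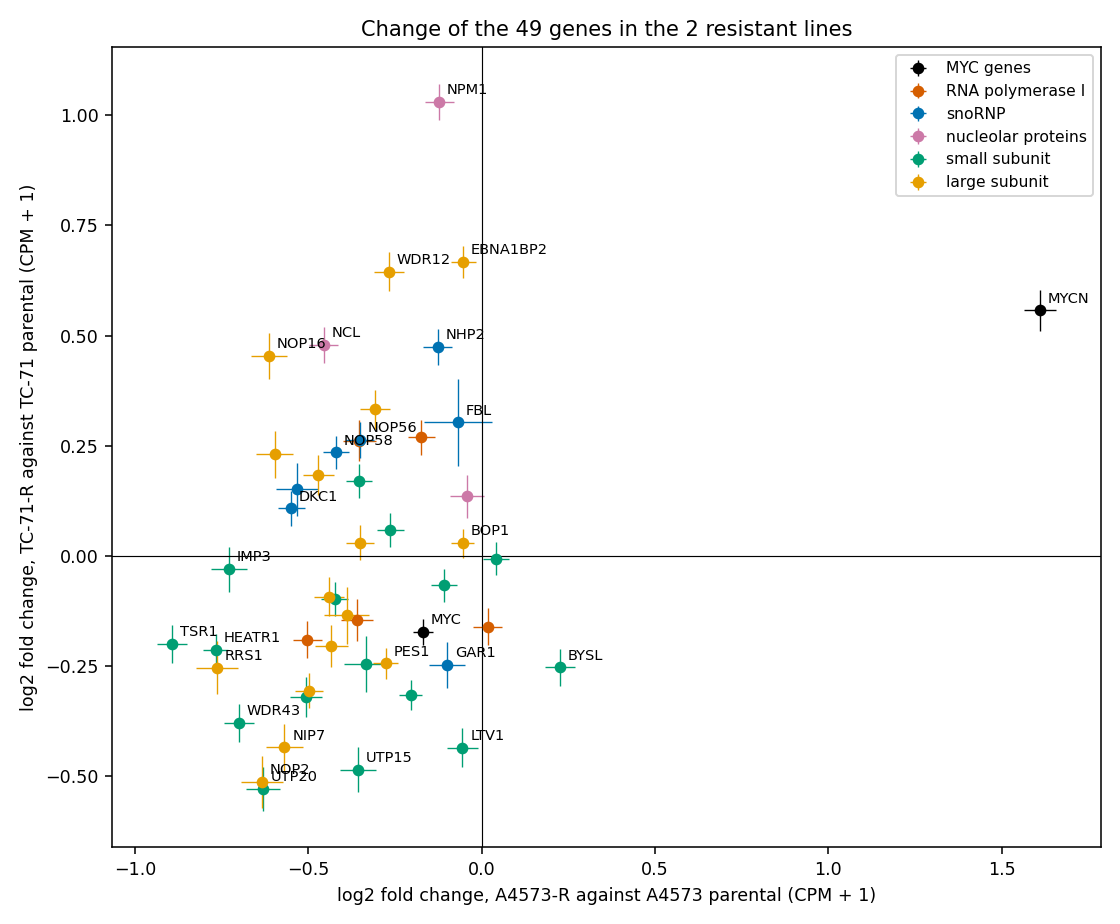
Each point is 1 of the 49 genes, with its log2 fold change in A4573-R (x axis) and in TC-71-R (y axis) on the log2(CPM + 1) scale and bars of 1 SE; colour gives the role. Most points lie left of 0, and they spread above and below 0 on the y axis, from UTP20 at -0.53 to NPM1 at 1.03; MYCN lies apart on the right.

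MYC fell slightly in both lines. It stood at 280.1, 276 and 275 CPM in parental A4573 and 245, 248 and 247 in A4573-R, and at 648, 646 and 644 in parental TC-71 and 573, 579 and 567 in TC-71-R. The groups did not overlap in either line, and both TC-71 groups lay above both A4573 groups. The log2 fold change was -0.17 (SE 0.029, adjusted p = 9.4e-05, limma) in A4573-R and -0.17 (SE 0.029, adjusted p = 5.9e-05, limma) in TC-71-R. The difference between the 2 changes had a 95% interval of -0.093 to 0.084; with quantile normalization it was -0.16 (adjusted p = 0.002, limma). Between the parental lines MYC was 2.33-fold higher in TC-71 (log2 1.22, SE 0.029, adjusted p = 1.7e-15, limma). Per kilobase of all annotated exons merged, MYC was at 215 CPM per kb in TC-71 parental and NPM1 at 151. The merged lengths (3001 bases for MYC, 3828 for NPM1) can exceed those of the mRNAs present. These values therefore do not rank the genes by abundance. MYC (ENSG00000136997.17) lies at chr8:127735434-127741434 on GRCh38.

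MYCN, the paralog known from neuroblastoma, rose in both lines from a very low level. It was at 0.904, 1.0 and 0.928 CPM in the A4573 parental libraries, 5.0, 4.72 and 5.09 in A4573-R, 0.513, 0.507 and 0.499 in the TC-71 parental libraries and 1.21, 1.21 and 1.23 in TC-71-R. Every R library lay above every parental library of its line. The mean rose 5.23-fold in A4573-R (log2(CPM + 1) change 1.61, SE 0.046, adjusted p = 1.8e-13, limma) and 2.4-fold in TC-71-R (0.56, SE 0.046, adjusted p = 1.9e-08, limma); the pseudocount of 1 shrinks both log2 values. Per kilobase, MYCN in A4573-R reached 1.9 CPM per kb, beside 82.1 for MYC in the same cells. MYCN (ENSG00000134323.11, chr2:15940564-15947007) is overlapped by the antisense gene MYCNOS, which averaged 0.021 CPM in A4573 parental and 0.13 in A4573-R, and 0.0080 in parental TC-71 and 0.036 in TC-71-R. The sources used here do not say whether counting used the strand, and the part of MYCNOS in the values of MYCN was not tested.

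**Figure D3:**
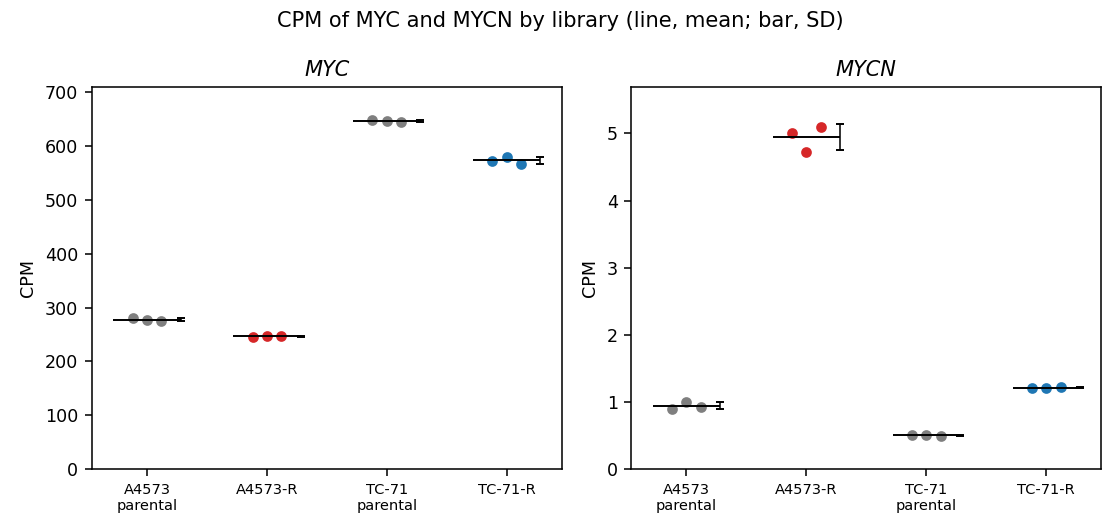
CPM of MYC (left) and MYCN (right) in each library by group, with the group mean as a line and the SD as a bar. MYC lies between 245 and 648 CPM with TC-71 above A4573, and MYCN between 0.499 and 5.09 CPM with A4573-R highest.

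The wider MYC network list holds 20 genes, MAX partners, antagonists and cofactors. In A4573-R 8 rose, 3 fell and 9 did not pass (limma), beside 38.3% higher and 34.1% lower among all genes tested. In TC-71-R 7 rose, 9 fell and 4 did not pass, shares near those of all genes tested (38.8% higher, 39.6% lower). MXD3, a MAX partner that represses E-box genes, rose in both, from 6.67 to 15.5 CPM in A4573-R (log2 fold change 1.1, adjusted p = 1.8e-10, limma) and from 2.41 to 11.4 CPM in TC-71-R (1.87, adjusted p = 2.2e-13, limma). MNT, a further MAX partner of this kind, fell in A4573-R from 34.3 to 25.7 CPM (-0.40, adjusted p = 1.1e-07, limma). MAX itself fell in A4573-R, from 33.0 to 23.9 CPM (-0.45, adjusted p = 6.3e-08, limma). MYCL, the third MYC family gene, fell in TC-71-R from 8.07 to 0.372 CPM (-2.73, adjusted p = 2.9e-14, limma). Its TC-71-R change minus its A4573-R change was -3.47 (adjusted p = 1.6e-13, limma), so MYCL did not fall in A4573-R.

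Among the 5 RNA polymerase I genes, 4 fell in A4573-R (all but POLR1C) and all 5 changed in TC-71-R, in 2 directions. Of all genes tested, 34.1% fell in A4573-R, and 78.5% passed in TC-71-R, 38.8% higher and 39.6% lower. With 5 genes the TC-71-R split cannot be set apart from these shares. The subunits POLR1A, POLR1B and POLR1C fell in TC-71-R, with log2 fold changes of -0.15, -0.19 and -0.16. UBTF, which binds ribosomal DNA and helps load the polymerase, rose with 0.26, and so did TCOF1, the Treacher Collins protein that works beside it, with 0.27.

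UBTF was at 179, 183 and 183 CPM in parental A4573 and 139, 132 and 155 in A4573-R, and at 193, 192 and 192 in parental TC-71 and 231, 239.8 and 222 in TC-71-R. TCOF1 was at 166, 171 and 174 CPM in the A4573 parental libraries, 150.4, 145 and 157 in A4573-R, 79.9, 78.1 and 78.6 in the TC-71 parental libraries and 93.7, 100.1 and 92 in TC-71-R. Both were below their parental range in A4573-R and above it in TC-71-R, and the difference between the lines was 0.61 for UBTF (SE 0.066, adjusted p = 5.3e-07, limma) and 0.44 for TCOF1 (SE 0.055, adjusted p = 2.5e-06, limma). TCOF1 was also 1 of 7 members whose mean in TC-71 parental was at most 0.5 times that in A4573 parental.

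POLR1B, the second largest subunit, was at 86.4, 83.6 and 84.9 CPM in parental A4573 and 62, 54.9 and 62.5 in A4573-R, and at 112, 111 and 113 in parental TC-71 and 97.2, 97.9 and 99 in TC-71-R. It was higher in TC-71 parental than in A4573 parental and fell in both R lines. POLR1C, a subunit shared with RNA polymerase III, was at 40.2, 39.5 and 38.1 CPM in the A4573 parental libraries, 39.5, 37.5 and 42.2 in A4573-R, 37.5, 37.7 and 37.6 in the TC-71 parental libraries and 32.8, 34.8 and 33.1 in TC-71-R, and the A4573 groups overlapped. Its difference between the lines was -0.18 (SE 0.06, adjusted p = 0.013, limma). POLR1C overlaps 4 antisense genes. Of these, XPO5 averaged 153 CPM in parental A4573, 167 in A4573-R, 105 in parental TC-71 and 86.0 in TC-71-R. YIPF3 averaged 36.0, 52.8, 50.8 and 61.2 CPM in the same order. The part of these genes in the values of POLR1C was not tested. Of 15 other tested genes of the RNA polymerase I machinery, 3 rose and 6 fell in A4573-R and 7 rose and 4 fell in TC-71-R (limma). Beside them, 38.3% of all genes tested rose and 34.1% fell in A4573-R, and 38.8% rose and 39.6% fell in TC-71-R. TAF1D, of the promoter selectivity factor, fell in A4573-R from 117 to 69.3 CPM (-0.75, adjusted p = 9.5e-11, limma), and POLR2H rose in TC-71-R from 45.0 to 72 CPM (0.67, adjusted p = 3.2e-09, limma).

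Most snoRNP genes moved in opposite directions in the 2 lines. Of 7, 5 fell and none rose in A4573-R (median log2 fold change -0.35), while 6 rose and 1 fell in TC-71-R (median 0.23). Of all genes tested, 34.1% fell in A4573-R, 38.8% rose in TC-71-R and 11.9% did both. DKC1, NOLC1 and NHP2 each lost a call when single libraries were left out, as given below. FBL, the methyltransferase of the C/D snoRNPs, and its scaffold partners NOP56 and NOP58 all rose in TC-71-R. Of the H/ACA proteins, the pseudouridine synthase DKC1 and NHP2 rose in TC-71-R, and GAR1 fell with -0.25 (SE 0.052, adjusted p = 0.00046, limma).

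NOP56 was at 241, 245 and 242 CPM in parental A4573 and 189.7, 178 and 203 in A4573-R, and at 228, 229.8 and 235 in parental TC-71 and 275, 282 and 276 in TC-71-R. NOP58 was at 155, 160.2 and 161 CPM in the A4573 parental libraries, 115, 114 and 126 in A4573-R, 145, 147 and 148 in the TC-71 parental libraries and 172, 170.2 and 175 in TC-71-R. The 2 partners had nearly the same changes, -0.35 and -0.42 in A4573-R and 0.26 and 0.23 in TC-71-R, with differences between the lines of 0.61 (SE 0.057, adjusted p = 1e-07, limma) and 0.65 (SE 0.053, adjusted p = 1.8e-08, limma). NOP56 holds 5 snoRNA genes within its bounds and NOP58 holds 4; the sources used here do not say whether their reads entered the counts.

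FBL was at 164, 164 and 165 CPM in parental A4573 and 123, 170.1 and 184 in A4573-R, and at 147, 145 and 138 in parental TC-71 and 179.8, 171 and 179.6 in TC-71-R. Its A4573-R libraries spread more than those of any other member, with replicate 1 below all parental libraries and replicates 2 and 3 above them. The change in A4573-R was -0.069 (SE 0.098, adjusted p = 0.55, limma), and without replicate 1 it was 0.11 (adjusted p = 0.034, limma); the difference between the lines (0.37, adjusted p = 0.023, limma) did not pass without TC-71 parental replicate 3 (adjusted p = 0.054, limma) or with DESeq2 (0.053).

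DKC1, which is mutated in dyskeratosis congenita, was at 187, 194 and 193 CPM in the A4573 parental libraries, 129, 123 and 139 in A4573-R, 83.1, 85.7 and 84.5 in the TC-71 parental libraries and 89.5, 90.3 and 93.4 in TC-71-R. It fell clearly in A4573-R (-0.55, SE 0.04, adjusted p = 7e-09, limma) and rose slightly in TC-71-R (0.11, SE 0.04, adjusted p = 0.022, limma). That small rise did not pass without TC-71-R replicate 3 (adjusted p = 0.08, limma) or TC-71 parental replicate 1 (0.073). The rise of NOLC1 (0.15), a chaperone of snoRNPs, did not pass without any one of 5 of the 6 TC-71 libraries (all but TC-71-R replicate 2; 0.15 without TC-71-R replicate 3). NHP2 rose in TC-71-R by 0.47 (SE 0.041, adjusted p = 3.4e-08, limma), and its fall in A4573-R (-0.13) did not pass without A4573-R replicate 1 (0.059) or A4573 parental replicate 3 (0.056). GAR1 overlapped between the A4573 groups and passed as a fall there without A4573-R replicate 3 (0.023).

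The 3 other nucleolar proteins all rose in TC-71-R, where 38.8% of all genes tested rose. Of them, NPM1 and NCL carried some of the largest changes of the set. NPM1 (nucleophosmin, ENSG00000181163.13, chr5:171387116-171411137) is a histone chaperone and the main structural protein of the granular nucleolus. NCL (nucleolin, ENSG00000115053.15, chr2:231453531-231483641) binds the ribosomal RNA precursor. The rise of the third, LYAR (0.13), did not pass without TC-71-R replicate 1 (adjusted p = 0.057, limma) or TC-71 parental replicate 2 (0.06).

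NPM1 was at 1169, 1213 and 1239 CPM in parental A4573 and 1082, 1084 and 1161 in A4573-R, and at 570.1, 584 and 579.7 in parental TC-71 and 1211, 1192 and 1142 in TC-71-R. TC-71 parental stood alone at a low level, and the other 3 groups were within 1082 to 1239 CPM. The change was 1.03 in TC-71-R (SE 0.042, adjusted p = 4.4e-12, limma), a 2.04-fold rise, and -0.12 in A4573-R (SE 0.042, adjusted p = 0.016, limma), a small fall that did not pass without A4573-R replicate 1 (adjusted p = 0.053, limma) or A4573 parental replicate 3 (0.072). GENCODE names 45 NPM1 pseudogenes, so reads of NPM1 may have been left out or assigned elsewhere, and its level is uncertain.

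NCL was at 1709, 1773 and 1788 CPM in the A4573 parental libraries, 1254, 1248 and 1341 in A4573-R, 743, 734 and 735 in the TC-71 parental libraries and 1054, 1008 and 1024 in TC-71-R. All 4 groups were separate, with A4573 parental highest and TC-71 parental lowest. The change was -0.46 in A4573-R (SE 0.041, adjusted p = 7.4e-08, limma) and 0.48 in TC-71-R (SE 0.041, adjusted p = 2.8e-08, limma). Between the parental lines NCL was lower in TC-71 by a ratio of 0.42, and NPM1 by 0.479.

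**Figure D4:**
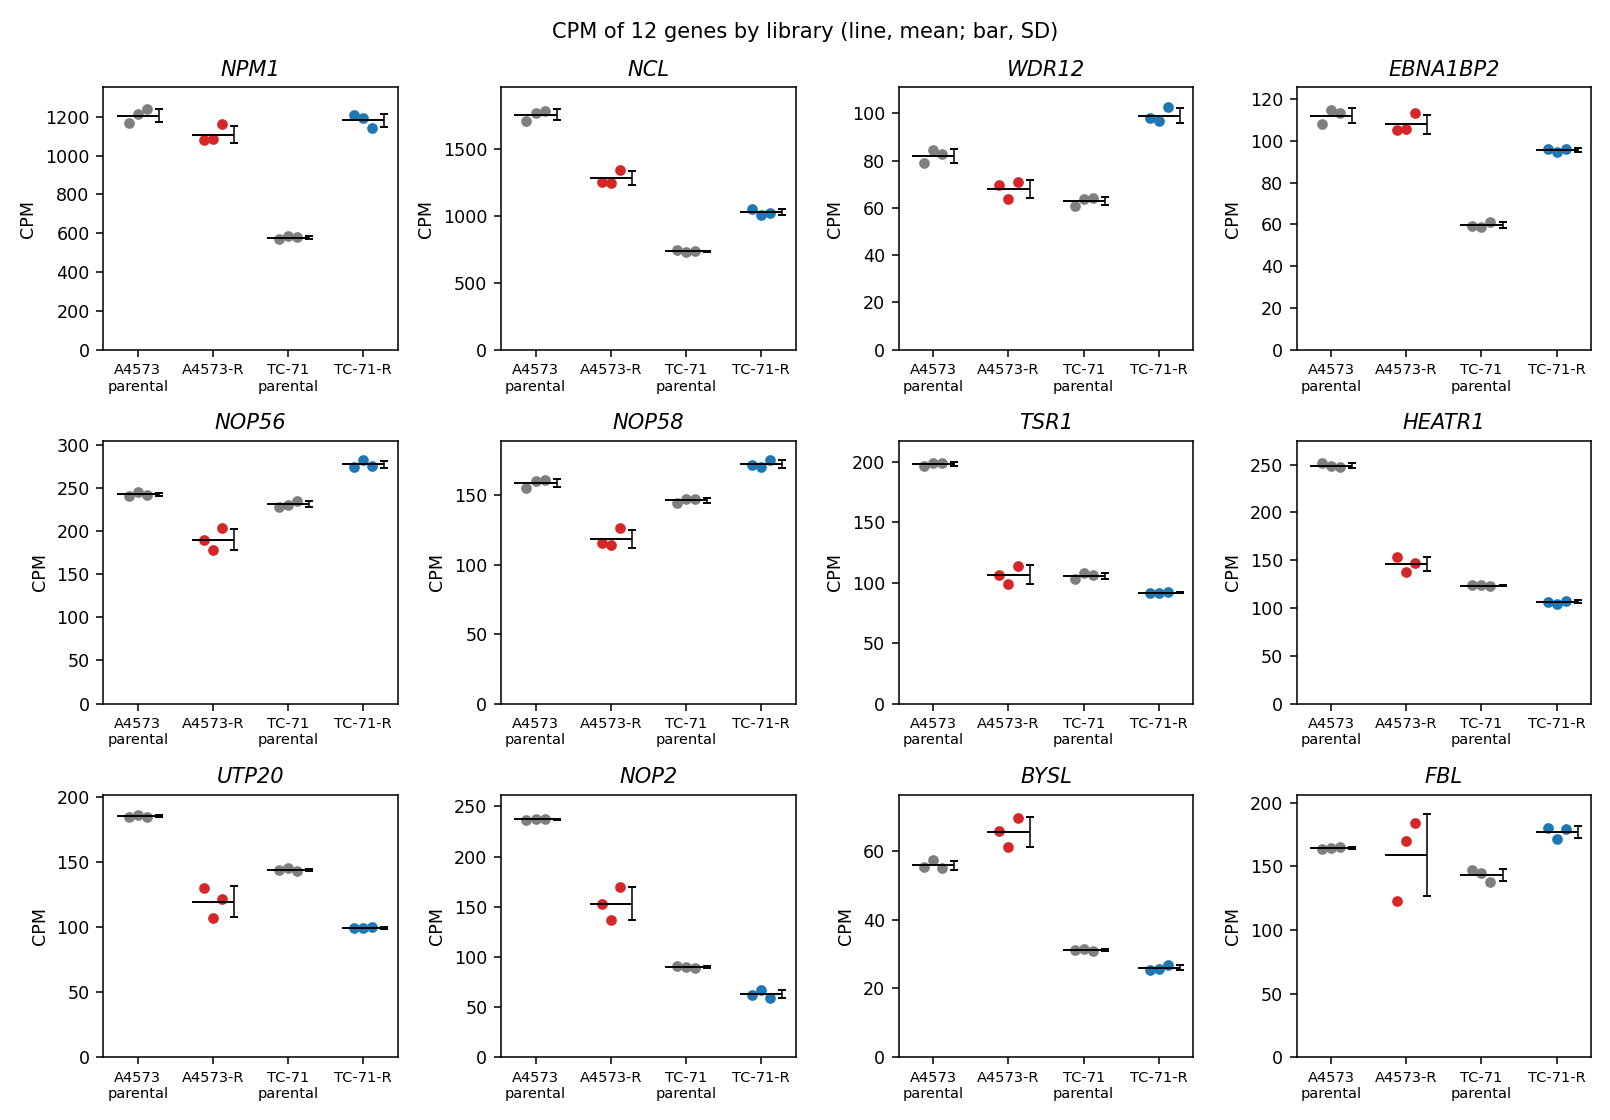
CPM in each library by group for 12 genes, with the group mean as a line and the SD as a bar; each axis starts at 0. NPM1, NCL, WDR12, NOP56 and NOP58 fall from parental A4573 to A4573-R and rise from parental TC-71 to TC-71-R, EBNA1BP2 and FBL pass the test in TC-71-R only, TSR1, HEATR1, UTP20 and NOP2 fall in both lines, and BYSL rises in A4573-R and falls in TC-71-R.

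Small subunit factors were the role with the most falls in TC-71-R. Of 16, 13 fell and BYSL rose in A4573-R (median -0.35), and 11 fell and NOB1 rose in TC-71-R (median -0.23). Of all genes tested, 34.1% fell and 38.3% rose in A4573-R, and 39.6% fell and 38.8% rose in TC-71-R. The deepest falls of the whole set in A4573-R were those of TSR1 and HEATR1, and the deepest in TC-71-R was that of UTP20. TSR1 is a GTPase-like factor of late pre-40S particles, and HEATR1 and UTP20 are large scaffold proteins of the processome.

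TSR1 was at 197, 199 and 199 CPM in parental A4573 and 107, 98.7 and 114 in A4573-R, and at 103, 108 and 106 in parental TC-71 and 91.6, 91.5 and 91.9 in TC-71-R. HEATR1 was at 252, 248 and 247 CPM in the A4573 parental libraries, 153, 138 and 147 in A4573-R, 124, 124 and 123 in the TC-71 parental libraries and 107, 105 and 108 in TC-71-R. Both fell most in A4573, where their parental level was higher. The changes in A4573-R were -0.89 for TSR1 (SE 0.042, adjusted p = 5.3e-11, limma) and -0.77 for HEATR1 (SE 0.036, adjusted p = 4.4e-11, limma). Their changes in TC-71-R were -0.20 and -0.21. TSR1 is overlapped on the other strand by SGSM2, which averaged 89.5 CPM in parental A4573 and 52.4 in A4573-R, and 89.1 in parental TC-71 and 96.5 in TC-71-R, and by the less abundant SRR. HEATR1 is overlapped by LGALS8, which averaged 19 CPM in parental A4573 and 9.16 in A4573-R, and 10.7 in parental TC-71 and 2.74 in TC-71-R. The part of these genes in the values of TSR1 and HEATR1 was not tested.

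UTP20 was at 184, 186 and 185 CPM in parental A4573 and 130.0, 107 and 121 in A4573-R, and at 143, 145 and 143 in parental TC-71 and 98.9, 98.8 and 100.1 in TC-71-R. UTP15, a WD repeat protein of the same processome, was at 20.4, 20.9 and 21.2 CPM in the A4573 parental libraries, 16.6, 14.7 and 17 in A4573-R, 19.1, 19.3 and 19.8 in the TC-71 parental libraries and 13.5, 13 and 14.2 in TC-71-R. The falls of UTP20 were alike in the 2 lines, -0.63 and -0.53 (SE 0.05, adjusted p = 1e-07 for TC-71-R, limma), with a 95% interval of -0.05 to 0.25 for their difference; without A4573-R replicate 1 the difference passed (0.16, adjusted p = 0.018, limma). The difference for UTP15 (-0.13, 95% interval -0.29 to 0.026) passed without A4573-R replicate 2 (adjusted p = 0.0087, limma).

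IMP3, a component of the U3 snoRNP, was at 33.4, 31.6 and 31.7 CPM in parental A4573 and 19.5, 17.5 and 20.3 in A4573-R, and at 30.5, 30.2 and 31.5 in parental TC-71 and 31.2, 28.3 and 30.7 in TC-71-R. WDR43, another processome protein, was at 96.6, 103 and 102 CPM in the A4573 parental libraries, 62.3, 57.1 and 65.3 in A4573-R, 112, 110.2 and 109.6 in the TC-71 parental libraries and 83.2, 86.7 and 84.5 in TC-71-R. IMP3 fell in A4573-R (-0.73, SE 0.051, adjusted p = 4.9e-09, limma), while its TC-71 libraries overlapped; WDR43 fell in both lines, with -0.70 and -0.38.

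Other small subunit factors broke from the common direction. BYSL (bystin), which acts on pre-40S particles, was at 55.2, 57.2 and 54.9 CPM in parental A4573 and 65.7, 61.1 and 69.6 in A4573-R, and at 31.2, 31.4 and 30.9 in parental TC-71 and 25.5, 25.7 and 26.8 in TC-71-R. Its rise of 0.23 in A4573-R (SE 0.043, adjusted p = 0.0002, limma) and fall of -0.25 in TC-71-R (SE 0.043, adjusted p = 5.6e-05, limma) ran opposite to the 15 genes that fell in A4573-R and rose in TC-71-R.

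LTV1, which escorts the pre-40S particle out of the nucleus, was at 49.5, 51.5 and 52.2 CPM in the A4573 parental libraries, 48.9, 45.8 and 52.8 in A4573-R, 72.5, 73.9 and 74.6 in the TC-71 parental libraries and 53.4, 55.8 and 53.3 in TC-71-R. It fell in TC-71-R (-0.44, SE 0.044, adjusted p = 2.2e-07, limma), and its A4573 groups overlapped, passing as a fall without A4573-R replicate 3 (adjusted p = 0.025, limma). NOB1, the nuclease that makes the last cut of 18S ribosomal RNA, was at 35.8, 36.7 and 36.5 CPM in parental A4573 and 27.3, 28.9 and 28.5 in A4573-R, and at 69.8, 69.9 and 73.7 in parental TC-71 and 80.7, 83 and 76.8 in TC-71-R, a fall of -0.35 in A4573-R and a rise of 0.17 in TC-71-R on the log2 scale.

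RRP12, an export factor, was at 72.6, 72.5 and 72.5 CPM in the A4573 parental libraries, 62.5, 62.3 and 63.7 in A4573-R, 94.2, 90.5 and 88.8 in the TC-71 parental libraries and 73.4, 75.5 and 70.1 in TC-71-R; its difference between the lines was -0.11 (adjusted p = 0.043, limma) and did not pass when any one of 9 of the 12 libraries was left out (adjusted p of 0.052 to 0.12, limma). NOP14 did not pass in either line, with 0.042 in A4573-R (95% interval -0.037 to 0.12) and -0.0063 in TC-71-R (-0.085 to 0.072). The fall of WDR3 in TC-71-R (-0.099) did not pass without any one of 5 of the 6 TC-71 libraries (all but TC-71-R replicate 1; 0.053 to 0.098), nor that of IMP4 in A4573-R (-0.11) without A4573-R replicate 2 (0.09) or A4573 parental replicate 3 (0.062).

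Among 25 other tested members of the small subunit processome, 18 fell and 1 rose in A4573-R (median -0.24), mostly falls as in the set itself. There 34.1% of all genes tested fell and 38.3% rose. In TC-71-R 10 rose, 8 fell and 7 did not pass (limma, median 0.024), beside 38.8% higher and 39.6% lower among all genes tested. The mostly downward direction of the 16 small subunit genes in TC-71-R was thus not seen in this list. NAT10, the cytidine acetyltransferase of ribosomal RNA, fell in A4573-R from 94.7 to 51.5 CPM (-0.87, adjusted p = 1.5e-12, limma) and rose in TC-71-R from 85.8 to 122.5 CPM (0.51, adjusted p = 3.4e-10, limma). The GTPase BMS1 fell in A4573-R from 110.4 to 54.7 CPM (log2 -1.0, adjusted p = 1.4e-12, limma).

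Large subunit factors fell in A4573-R, 14 of 16 with none rising, beside 34.1% lower and 38.3% higher among all genes tested. Their median log2 fold change was -0.44, the lowest of the roles with 5 or more genes. In TC-71-R 6 rose, 6 fell and 4 did not pass, shares close to the 38.8% higher and 39.6% lower of all genes tested. The genes that rose there were EBNA1BP2, WDR12, NOP16, RRP1, RRP1B and GNL3L, and those that fell were NOP2, NIP7, PPAN, RRS1, PES1 and MRTO4.

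The PeBoW complex is built of PES1, BOP1 and WDR12 and is needed to process the large subunit precursor. The mRNAs of these genes did not move together in TC-71-R. WDR12 was at 78.8, 84.5 and 82.9 CPM in parental A4573 and 69.5, 63.8 and 71 in A4573-R, and at 60.8, 63.8 and 64.2 in parental TC-71 and 97.8, 96.6 and 103 in TC-71-R. PES1 was at 146, 150.3 and 151 CPM in the A4573 parental libraries, 119.9, 119 and 130.4 in A4573-R, 125, 125 and 125 in the TC-71 parental libraries and 107, 105 and 104 in TC-71-R. WDR12 rose by 0.65 (SE 0.043, adjusted p = 1.8e-09, limma) while PES1 changed by -0.24 (SE 0.036, adjusted p = 1.4e-05, limma), and BOP1 did not pass (0.029, 95% interval -0.041 to 0.098). In A4573-R WDR12 and PES1 both fell, with -0.27 and -0.28, and BOP1 did not pass (-0.055, 95% interval -0.12 to 0.015) except without A4573-R replicate 3 (adjusted p = 0.017, limma).

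EBNA1BP2, an early assembly factor that binds the EBNA1 protein, was at 108, 115 and 113 CPM in parental A4573 and 105, 106 and 113 in A4573-R, and at 59.1, 58.9 and 61.3 in parental TC-71 and 96, 94.5 and 96 in TC-71-R. NOP16 was at 58, 60.7 and 60.5 CPM in the A4573 parental libraries, 39.5, 35 and 41.9 in A4573-R, 30.6, 31.9 and 32.9 in the TC-71 parental libraries and 44, 43.6 and 44.1 in TC-71-R. RRP1B was at 154, 161 and 165 CPM in parental A4573 and 109, 94.7 and 114 in A4573-R, and at 77.3, 76.3 and 75 in parental TC-71 and 90.6, 86.2 and 92 in TC-71-R. EBNA1BP2 rose in TC-71-R (0.67, SE 0.036, adjusted p = 1.3e-10, limma). Its A4573 groups overlapped, and it passed as a fall there without A4573-R replicate 3 (0.035), while NOP16 and RRP1B fell in A4573-R and rose in TC-71-R. The difference between the lines was 1.07 for NOP16 (SE 0.073, adjusted p = 2.7e-09, limma) and 0.83 for RRP1B (SE 0.075, adjusted p = 7.8e-08, limma). NOP16 overlaps 2 antisense genes, ARL10, which averaged 41.9, 39.2, 48.3 and 63.8 CPM in the 4 groups in the order used above, and HIGD2A, which averaged 33, 38.1, 30.7 and 53.1 CPM. Both averaged more in TC-71-R than in TC-71 parental, and their part in the values of NOP16 was not tested.

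NOP2, a cytosine methyltransferase of 28S ribosomal RNA, was at 236, 237 and 238 CPM in the A4573 parental libraries, 153, 137 and 170.1 in A4573-R, 90.8, 90 and 88.8 in the TC-71 parental libraries and 61.9, 67 and 59.3 in TC-71-R. NIP7 was at 32.1, 32.9 and 33.9 CPM in parental A4573 and 21.5, 20.5 and 23.9 in A4573-R, and at 45.7, 46.8 and 46.3 in parental TC-71 and 34.6, 31.5 and 35.9 in TC-71-R. RRS1, which brings the 5S particle into the large subunit precursor, was at 40.4, 41.4 and 42.7 CPM in the A4573 parental libraries, 23, 21.9 and 27.7 in A4573-R, 54, 52.3 and 51.8 in the TC-71 parental libraries and 43.9, 43.4 and 44.8 in TC-71-R. All 3 fell in both lines, with A4573-R changes of -0.63, -0.57 and -0.76 and TC-71-R changes of -0.51, -0.44 and -0.25. The 95% interval of the difference between the lines held 0 for NOP2 (-0.063 to 0.30) and NIP7 (-0.03 to 0.30), though both passed without A4573-R replicate 3 (0.015 and 0.016) and NIP7 without TC-71-R replicate 2 (0.025). RRS1 fell more in A4573-R (difference 0.51, adjusted p = 6.7e-05, limma).

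Among 26 other large subunit assembly factors, 16 fell and 4 rose in A4573-R and 12 fell and 8 rose in TC-71-R (limma; medians -0.25 and -0.061). EIF6, which keeps the subunits apart until the large one is mature, fell in TC-71-R from 40.9 to 16.9 CPM (-1.23, adjusted p = 5.4e-13, limma). NOP53, an exosome adaptor, rose in both lines, from 67.4 to 88.5 CPM in A4573-R (0.39, adjusted p = 2e-06, limma) and from 58.7 to 121.0 CPM in TC-71-R (1.03, adjusted p = 1.4e-11, limma). Of 16 late maturation and export factors, 13 fell and 1 rose in A4573-R, and 8 fell and 5 rose in TC-71-R. Beside both lists, 34.1% of all genes tested fell and 38.3% rose in A4573-R. In TC-71-R 39.6% of all genes tested fell and 38.8% rose.

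The mRNAs of the cytosolic ribosomal proteins did not follow the assembly factors. Of 79, 53 rose and 12 fell in A4573-R (limma; median 0.19), and 63 rose and 7 fell in TC-71-R (median 0.53). RPL13 rose in A4573-R from 796.3 to 1334 CPM (0.74, adjusted p = 1.7e-10, limma), and RPS14 rose in TC-71-R from 314.6 to 813.7 CPM (1.37, adjusted p = 4.2e-13, limma). Ribosomal protein genes have many processed pseudogenes, so single values are uncertain. Of 22 other known MYC targets, 10 fell and 1 rose in A4573-R, and 8 fell and 10 rose in TC-71-R. The shares of all genes tested were 34.1% lower and 38.3% higher in A4573-R, and 39.6% lower and 38.8% higher in TC-71-R. In TC-71-R the split of these targets is near that of all genes. LDHA rose in TC-71-R from 234.2 to 519.7 CPM (1.14, adjusted p = 4.2e-11, limma), and ODC1 fell there from 266.3 to 160.8 CPM (-0.72, adjusted p = 1e-10, limma).

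**Figure D5:**
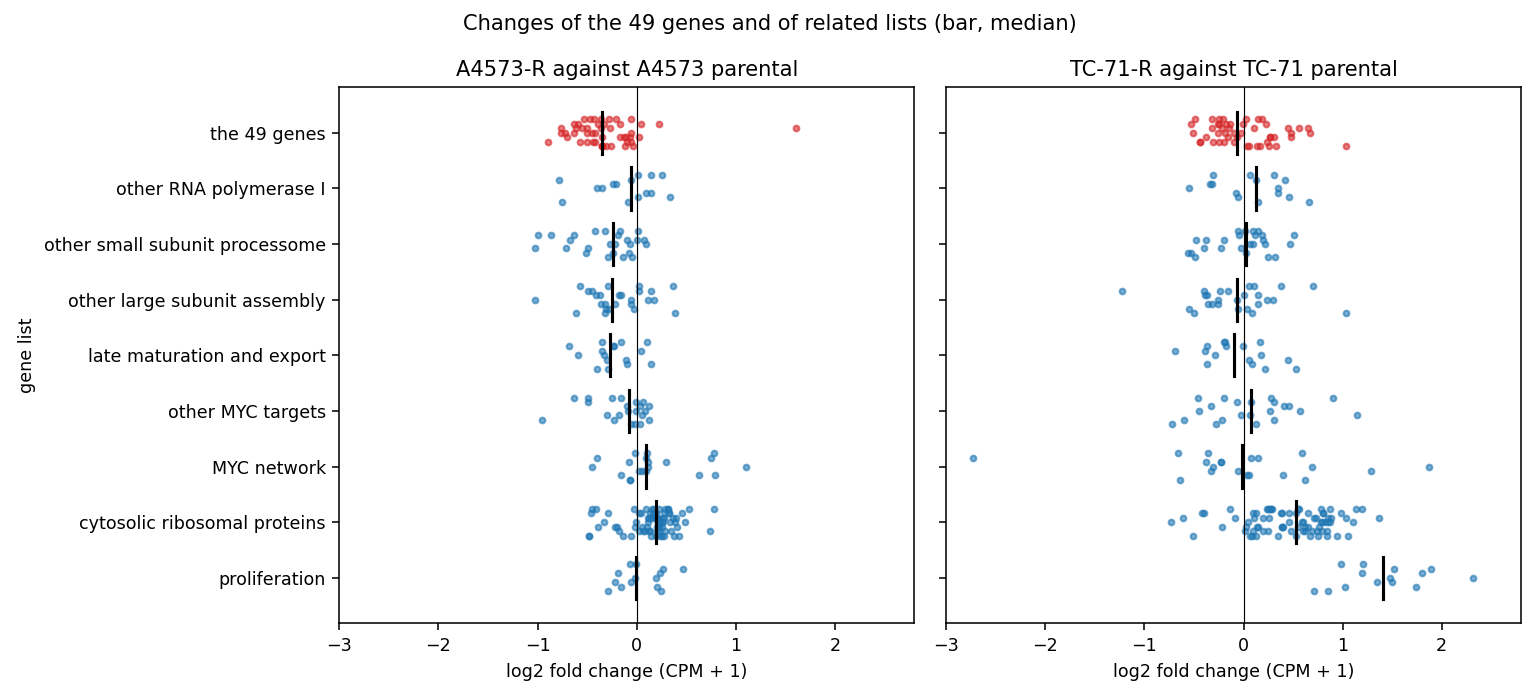
Log2 fold changes (log2(CPM + 1) scale) of single genes in A4573-R (left) and TC-71-R (right) for the 49 genes (red) and 8 related lists (blue), with the list median as a bar. The 49 genes have a median of -0.35 on the left and -0.067 on the right, ribosomal proteins lie mostly right of 0 in both panels, and all 14 proliferation markers lie right of 0 in TC-71-R.

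The parental lines also differed in these genes. Of the 49 genes, 16 were higher in TC-71 parental, 25 were lower and 8 did not pass (limma), against 89.9% of all genes tested that passed, 45.9% higher and 44.1% lower. With median-of-ratios scaling the split was 12 higher and 30 lower. MYC was the only member at least 2-fold higher in TC-71, and 7 members were at most 0.5 times as high there. All 14 proliferation markers were lower in TC-71 parental, with a median log2 difference of -2.15.

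The lowest in TC-71 relative to A4573 were NOP2 (log2 difference -1.39), NCL (-1.25), DKC1 (-1.17), TCOF1 (-1.10) and NPM1 (-1.06), each with adjusted p of 2.6e-12 or less (limma). The highest besides MYC were NOB1 (0.95), LTV1 (0.52), NIP7 (0.48) and POLR1B (0.40). No snoRNP or other nucleolar protein gene was higher in TC-71 parental, and 7 of those 10 were lower. These parental libraries are also the controls of the 2 R comparisons, so the values are set side by side without a correlation.

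Promoter windows were searched for the members that fell in both lines and those that moved apart. As given above, that split is similar among all genes tested that fell in A4573-R. RefSeq windows on GRCh38.p14, of 300 bases from 250 before to 50 after an annotated start, were found for 41 of the 49 genes (51 windows). The E-box CACGTG, the letters MYC and MAX bind, reads the same on both strands. It was in 33.3% of member windows (17 of 51), against 9.30% of 15436 windows of tested genes and 7.26% of all 35116 windows. Of 18 E-box matches in member windows, 15 lay 10 bases before the start or later, with a median of 11 bases after it.

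By gene, 16 of 41 members (39.0%) and 12.8% of tested genes had an E-box in a window. Among genes that fell in both lines, 7 of 15 with a window held an E-box (NOP2, UTP20, WDR43, RRP9, MRTO4, PNO1 and PES1). Among genes that fell in A4573-R and rose in TC-71-R, 0 of 11 genes did, over 13 windows. Outside these groups BYSL, EBNA1BP2, FBL, GAR1, GNL3, IMP4, LTV1, LYAR and NOP14 held one. GRWD1, IMP3, MYCN, POLR1C, WDR74 and WDR75 did not. Since EBNA1BP2, FBL and LYAR rose in TC-71-R, an E-box was not confined to genes that fell there. The ETS motif CCGGAAGT, searched on both strands, was in 17.6% of member windows, 7.0% of those of tested genes and 4.14% of all windows. By gene it was found for 9 of 41 members (22.0%) and 9.62% of tested genes. Among members it was found for 2 of the 15 that fell in both lines and for 1 of the 11 that moved apart. A match is a description of letters and not a measured binding site, and the groups of genes are small. E-box shares of tested genes were not counted by direction of change. Whether the E-box contrast between these groups is particular to the members was therefore not tested.

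Such windows are shown for NCL, WDR12 and NOP16, which fell in A4573-R and rose in TC-71-R, and for UTP20 and NOP2, which fell in both lines. They run 5′ to 3′ on the gene's strand with E-box letters in capitals. NCL is at chr2:231464435-231464734, minus strand, WDR12 at chr2:202911624-202911923, minus strand, NOP16 at chr5:176388549-176388848, minus strand, UTP20 at chr12:101279855-101280154, plus strand and NOP2 at chr12:6568242-6568541, minus strand.
NCL: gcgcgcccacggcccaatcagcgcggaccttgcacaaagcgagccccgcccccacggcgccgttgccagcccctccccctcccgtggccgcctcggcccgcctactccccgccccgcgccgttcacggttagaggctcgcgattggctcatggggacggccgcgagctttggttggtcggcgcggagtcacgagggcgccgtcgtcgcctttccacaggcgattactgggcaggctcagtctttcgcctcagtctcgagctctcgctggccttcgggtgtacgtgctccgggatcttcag
WDR12: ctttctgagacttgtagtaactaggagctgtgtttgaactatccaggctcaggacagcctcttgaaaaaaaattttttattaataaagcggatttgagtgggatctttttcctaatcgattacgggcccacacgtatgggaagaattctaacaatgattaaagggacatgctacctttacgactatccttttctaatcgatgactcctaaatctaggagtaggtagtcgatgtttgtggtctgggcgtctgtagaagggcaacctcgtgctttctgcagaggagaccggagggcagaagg
NOP16: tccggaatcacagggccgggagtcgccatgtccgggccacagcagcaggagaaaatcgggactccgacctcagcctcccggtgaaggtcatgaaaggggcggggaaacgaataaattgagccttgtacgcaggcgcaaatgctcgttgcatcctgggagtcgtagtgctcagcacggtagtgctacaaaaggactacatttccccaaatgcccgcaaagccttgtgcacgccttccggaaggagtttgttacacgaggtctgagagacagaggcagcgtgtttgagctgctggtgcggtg
UTP20: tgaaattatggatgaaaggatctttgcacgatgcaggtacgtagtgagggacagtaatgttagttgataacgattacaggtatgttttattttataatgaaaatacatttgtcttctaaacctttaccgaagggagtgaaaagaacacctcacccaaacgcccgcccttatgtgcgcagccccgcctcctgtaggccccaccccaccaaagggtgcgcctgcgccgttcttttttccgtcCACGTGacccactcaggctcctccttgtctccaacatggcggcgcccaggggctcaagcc
NOP2: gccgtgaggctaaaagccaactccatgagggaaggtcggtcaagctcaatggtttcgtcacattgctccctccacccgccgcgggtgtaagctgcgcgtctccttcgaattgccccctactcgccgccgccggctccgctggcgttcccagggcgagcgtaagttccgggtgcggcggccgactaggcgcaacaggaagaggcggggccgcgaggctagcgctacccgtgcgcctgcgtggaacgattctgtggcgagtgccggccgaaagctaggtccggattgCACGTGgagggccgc
The windows of NCL, WDR12 and NOP16 hold no capitals, and those of UTP20 and NOP2 hold 1 match each. Not every gene that fell in both lines has one: the window of NIP7 (chr16:69339522-69339821, plus strand) holds neither motif.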

How the data were processed

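RNA-seq of 12 libraries was analysed, 3 in each of 4 groups taken from the sample titles. The submitters' processing notes name Trimmomatic, STAR 2.4, HTSeq, edgeR and the GRCh38 build. The deposited signal is a normalized value per gene and library: each column divides into whole reads for 100% of values (tolerance 0.001), so values are CPM on library sizes times a scaling factor of 0.894 to 1.06. Of 58293 entries, 5 carry no gene name, hold 30.6% to 42.0% of reads and were left out of tests. Entries sharing a symbol were summed.

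Genes that reached 1 CPM in 3 or more libraries were fitted as log2(CPM + 1) with limma 3.58.1 (R 4.3.3; 4 group means, trended variance), and p-values were adjusted by Benjamini-Hochberg over all 14335 genes with a threshold of 0.05. Scripts were tested on simulated data. The lowest correlation between libraries of a group was 0.997. Alternatives covered edgeR 4.0.16 and DESeq2 1.42.0 on the recovered reads, scaling, filter, pseudocount and leaving out each library. Gene positions and pseudogenes come from GENCODE 29. The labels give no batch.

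The members and gene lists were chosen with earlier results of these data known. Library values are given for MYC, MYCN and up to 5 members per direction and contrast with the largest changes, and up to 3 genes per direction are named of each other list; UBTF, TCOF1, NOP56, NOP58, FBL, PES1 and the windows shown were chosen after their values were seen.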

Additional observations from a re-analysis of the deposited data

Results flagged for a closer look

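The change in TC-71-R minus the change in A4573-R was tested in the same limma fit, and 38 members passed an adjusted p of 0.05. The difference was above 0 for 33 of them: NPM1 1.15, NOP16 1.07, NCL 0.93, WDR12 0.91, RRP1B 0.83, EBNA1BP2 0.72, IMP3 0.70, TSR1 0.69, NOLC1 0.68, DKC1 0.66, NOP58 0.65, GNL3L 0.65, RRP1 0.64, NOP56 0.61, UBTF 0.61, NHP2 0.60, HEATR1 0.55, NOB1 0.52, RRS1 0.51, TCOF1 0.44, GNL3 0.38, FBL 0.37, WDR74 0.35, WDR3 0.33, WDR43 0.32, WDR75 0.32, POLR1B 0.31, GRWD1 0.25, MRTO4 0.23, POLR1A 0.21, RRP9 0.19, PPAN 0.19 and LYAR 0.18. Differences below 0 were found for MYCN (-1.05), BYSL (-0.48), LTV1 (-0.38), POLR1C (-0.18) and RRP12 (-0.11). All are on the log2(CPM + 1) scale, and 78.1% of all genes tested passed for this contrast. A difference above 0 covers 3 cases: genes that fell in A4573-R and rose in TC-71-R (NCL), genes that fell in both but more in A4573-R (TSR1), and genes that passed in 1 line (EBNA1BP2, IMP3).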

How the results depend on the processing

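Over all alternatives, members that fell in A4573-R numbered 36 to 43 and members that rose 1 to 3; in TC-71-R 16 to 20 rose and 21 to 26 fell; the difference between the lines was above 0 for 29 to 36 and below 0 for 4 to 8. The count of members that rose in A4573-R was 1 with a minimum mean of 5 CPM, a filter that leaves MYCN untested. The count below 0 for the difference was 8 with CPM on named genes. Leaving out 1 library gave 36 to 43 falls in A4573-R, 17 to 19 rises in TC-71-R and 32 to 36 differences above 0. Each count over all genes that passed, under any alternative, was within 1.5 times its own main count: 8002 to 12401 in A4573-R (main 10389), 8640 to 14020 in TC-71-R (11248), 8373 to 14270 for the difference (11197) and 9576 to 17763 between the parental lines (12892).

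The change of FBL in A4573-R, with 1 of its 6 libraries left out in turn, ran from -0.18 to 0.11 and was positive without A4573-R replicate 1. Between the parental lines, quantile normalization turned NOP56 (0.20), NOP58 (0.20), BOP1 (0.010) and PES1 (0.035) to positive; the cause was not tested. Calls lost under at least 1 alternative were those of NPM1, NHP2 and IMP4 in A4573-R, of WDR3, NOLC1, DKC1 and LYAR in TC-71-R, and of FBL, GRWD1, LYAR, RRP12 and RRP9 for the difference. Between the parental lines NOP14, WDR43, WDR75 and PPAN lost theirs with median-of-ratios scaling, UTP20 and PPAN with quantile normalization and NOP58 with CPM on named genes. WDR75 also lost it without A4573 parental replicate 1 or 2 or TC-71 parental replicate 2 or 3, and NOP14 without TC-71 parental replicate 1.

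Same-numbered libraries did not deviate together (r from -0.097 to 0.026), and no number correlated best with itself throughout. With the replicate number as a block, 39 members fell and 2 rose in A4573-R, 19 rose and 24 fell in TC-71-R, the difference was above 0 for 33 and below 0 for 6, and 16 were higher and 25 lower in TC-71 parental. Depth limits MYCN most, at 0.499 CPM in its lowest library.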
